A study of Mus musculus with 8 samples.

Results

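The 9 genes of natural killer (NK) cells and cytotoxic lymphocytes described here, Ncr1, Klrb1c, Klrd1, Klrk1, Nkg7, Gzma, Gzmb, Prf1 and Ccl5, were followed across the RNA-seq libraries of mouse pro-B cells. They are 9 of the 55487 genes in the count table and were found by matching gene identifiers to these symbols. They were chosen by their CPM in the libraries compared here, because the transcripts were lower in some libraries labelled CD25_KO than in WT libraries, so their levels in that contrast are a description and carry no test. The question asked of these genes is how their levels run together across the 8 libraries, and how far the genes around them do the same.

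The study profiled gene expression in pro-B cells with and without CD25, the product of Il2ra and one chain of the interleukin-2 receptor. It holds 4 libraries with the genotype label CD25_KO and 4 labelled WT, each group numbered 1 to 4, called KO-labelled and WT libraries here. No strain, age, sort or allele is given in the labels, and nothing in them says that the libraries of a group came from separate animals or cultures, so a p-value reflects no more than the spread among these libraries. Trizol RNA went into a SMARTER mRNA-Seq kit, and total counts ran from 43974037 to 57988772 per library.

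Natural killer cells are lymphocytes that kill infected or transformed cells without a rearranged antigen receptor. Germline-encoded activating and inhibitory receptors on their surface decide whether a target is attacked, and the attack releases granules that hold the pore-forming protein perforin and serine proteases called granzymes. Cytotoxic T cells share the granule proteins and some of the receptors, and neither the receptors nor the granules are part of the known programme of B cell progenitors.

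The label of the libraries was checked first. Il2ra averaged 181 ± 43.1 CPM in the KO-labelled libraries and 193 ± 35.9 CPM in WT libraries (CPM, TMM-scaled counts relative to library size; SD, n = 4 each), a log2 fold change of -0.09 ± 0.19 (SE; edgeR quasi-likelihood test, Benjamini-Hochberg adjusted p = 0.849). The groups overlapped, so total counts over all exons of Il2ra do not check the label, and they cannot show whether single exons were missing. B lineage transcripts were abundant, with Cd79a at 3302 ± 519 TPM in the KO-labelled libraries and 2808 ± 330 TPM in WT libraries (TPM, the length-scaled share of transcripts, from the exon lengths in the table). Kit, a surface marker of pro-B cells, was low at 0.299 ± 0.124 TPM in the KO-labelled libraries and 0.417 ± 0.268 TPM in WT libraries. Other early B lineage genes were more abundant. Vpreb1, Igll1 and Dntt averaged 112 ± 54.6, 87.2 ± 48.4 and 40.0 ± 24.3 TPM in the KO-labelled libraries. In WT libraries they averaged 194 ± 72.0, 157 ± 55.8 and 72.3 ± 36.8 TPM. Rag1 and Il7r averaged 86.9 ± 25.8 and 256 ± 12.3 TPM in the KO-labelled libraries, against 102 ± 29.8 and 243 ± 18.1 TPM in WT libraries. Counts of Y-linked genes differed widely between libraries of both groups, at 0.0412, 505, 0.0401 and 505 CPM in KO-labelled libraries 1 to 4 and 0, 483, 2.79 and 0.0717 CPM in WT libraries 1 to 4. WT library 2 held both Y-linked counts and 60.0 CPM of Xist, the transcript of the inactive X chromosome.

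The DNA just before the transcription start is shown for 6 of the 9 genes, because it is the one stretch of sequence in which these genes could be set beside each other. RefSeq windows on GRCm38.p6 (250 bases before to 50 after the start) were given for 7 of the 9 genes, and the window of Klrb1c is left unprinted because it lies inside a longer annotated transcript. The letters TGTGGT and their reverse complement ACCACA, the core of sites bound by RUNX factors, stand in capitals, and each sequence runs 5′ to 3′ on the strand of the gene.
Ncr1, chr7:4337465-4337714, plus strand: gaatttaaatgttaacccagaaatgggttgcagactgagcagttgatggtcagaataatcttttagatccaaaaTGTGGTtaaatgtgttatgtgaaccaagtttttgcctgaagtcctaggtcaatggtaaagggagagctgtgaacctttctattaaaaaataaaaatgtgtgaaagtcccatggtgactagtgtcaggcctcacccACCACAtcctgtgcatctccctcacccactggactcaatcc
Klrk1, chr6:129623865-129624114, minus strand: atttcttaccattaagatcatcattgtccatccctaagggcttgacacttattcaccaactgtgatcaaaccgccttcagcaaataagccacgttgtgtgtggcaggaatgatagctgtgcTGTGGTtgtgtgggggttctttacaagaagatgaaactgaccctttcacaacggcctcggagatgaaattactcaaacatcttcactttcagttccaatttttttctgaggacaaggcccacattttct
Nkg7, chr7:43436888-43437072, plus strand: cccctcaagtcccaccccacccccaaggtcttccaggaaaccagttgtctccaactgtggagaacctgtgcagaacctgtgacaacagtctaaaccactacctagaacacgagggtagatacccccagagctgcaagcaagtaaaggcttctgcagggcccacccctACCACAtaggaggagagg
Gzma, chr13:113100982-113101231, minus strand: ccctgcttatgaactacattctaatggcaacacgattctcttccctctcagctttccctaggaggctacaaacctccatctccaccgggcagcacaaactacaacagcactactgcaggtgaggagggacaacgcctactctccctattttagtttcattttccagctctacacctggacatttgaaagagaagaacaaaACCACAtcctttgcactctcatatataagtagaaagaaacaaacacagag
Gzmb, chr14:56262335-56262584, minus strand: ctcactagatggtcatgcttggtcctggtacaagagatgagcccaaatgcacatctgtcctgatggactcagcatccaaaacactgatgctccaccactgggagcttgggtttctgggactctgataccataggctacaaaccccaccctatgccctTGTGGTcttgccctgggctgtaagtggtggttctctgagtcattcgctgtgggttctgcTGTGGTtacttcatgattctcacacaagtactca
Prf1, chr10:61297586-61297832, plus strand: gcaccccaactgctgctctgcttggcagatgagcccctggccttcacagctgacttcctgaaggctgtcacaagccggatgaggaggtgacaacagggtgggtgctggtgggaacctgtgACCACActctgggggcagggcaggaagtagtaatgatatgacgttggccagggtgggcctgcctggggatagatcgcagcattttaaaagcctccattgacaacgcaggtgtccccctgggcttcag

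TGTGGT was found on one strand or the other in 7 of 7 windows of these genes, against 16.9% of the windows of 27025 genes. The windows of the other NK and cytotoxic genes held it in 22 of 56 (39.3%) and those of B lineage markers in 4 of 11 (36.4%). GGTGTGA (reverse TCACACC), the letters of a T-box site, were in 1 of 7 windows, that of Nkg7, against 3.96% of all windows. CGGAAG (reverse CTTCCG), a single form of the ETS site, was in 0 of 7 against 17.2%. Shorter or other forms of the ETS site were not searched. TTCNNNGAA, the spacing of STAT sites, was in 2 of 7 (Nkg7 and Gzmb) against 8.42%. A match is a description of the letters and not of a bound site, and no match says only that these letters are not in this window. The motifs were picked with these genes and windows already known, so the shares are given with no test.

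All 9 genes passed the filter on low counts, and their mean WT levels per length lay between the 22.4th percentile of all genes tested for Gzmb and the 73.9th for Nkg7. On the per-length scale, Nkg7 and Gzma were the most abundant of the 9, at 10.8 ± 6.94 and 8.15 ± 6.01 TPM in the KO-labelled libraries and 22.4 ± 5.86 and 16.2 ± 3.72 TPM in WT libraries. Klrd1, Ccl5, Ncr1 and Klrb1c followed, with means from 2.38 to 3.67 TPM in the KO-labelled libraries and from 4.33 to 6.37 TPM in WT libraries. Klrk1, Prf1 and Gzmb were lowest, with means from 0.903 to 1.65 TPM in the KO-labelled libraries and from 0.913 to 2.01 TPM in WT libraries. In WT libraries the ranges of Nkg7 (15.7 to 28.8 TPM) and Gzma (10.7 to 19.1 TPM) overlapped, as did those of neighbours among the 4 genes that followed and among the 3 lowest. The lowest WT value of Gzma lay above the highest WT value of every lower-ranked gene, and that of Klrb1c above the highest of Klrk1. The counts behind these levels ran from 13 for Gzmb in KO-labelled library 3 to 626 for Nkg7 in WT library 2. In bulk libraries of this kind, fewer cells of a type and less RNA per cell cannot be told apart.

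The 4 surface receptors were lower on average in the KO-labelled libraries, and in each of them KO-labelled libraries 1 and 3 held the lowest values. Ncr1 (ENSMUSG00000062524.4; GRCm38 chr7:4337724-4345164, plus strand) encodes NKp46, an activating receptor that marks NK cells and some other innate lymphocytes. It had 1.61, 2.64, 0.541 and 3.33 CPM in KO-labelled libraries 1 to 4, against 5.38, 4.27, 3.77 and 3.51 CPM in WT libraries 1 to 4. Every KO-labelled library lay below every WT library, although KO-labelled library 4 and WT library 4 were close. Ncr1 was the only one of the 9 genes whose groups did not overlap in this way, and 4.17% of all 18884 genes tested did the same. Its means were 2.03 ± 1.22 CPM in the KO-labelled libraries and 4.23 ± 0.825 CPM in WT libraries (SD, n = 4 each), a log2 fold change of -1.05 ± 0.45 (SE).

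Klrb1c (ENSMUSG00000030325.16; chr6:128778485-128789215, minus strand) encodes NK1.1, the lectin-like receptor used to stain NK cells in C57BL/6 mice. It had 1.75, 5.63, 1.28 and 4.31 CPM in KO-labelled libraries 1 to 4, against 9.75, 5.01, 3.75 and 6.04 CPM in WT libraries 1 to 4. KO-labelled libraries 2 and 4 lay inside the WT range, and WT library 1 stood highest. The log2 fold change was -0.92 ± 0.47.

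Klrd1 (ENSMUSG00000030165.16; chr6:129591782-129598775, plus strand) encodes CD94, which pairs with NKG2 chains to read a non-classical class I molecule. It had 1.40, 3.56, 0.781 and 2.92 CPM in KO-labelled libraries 1 to 4, against 4.32, 5.11, 2.86 and 3.39 CPM in WT libraries 1 to 4. Again KO-labelled libraries 2 and 4 fell inside the WT range and libraries 1 and 3 below it, with a log2 fold change of -0.85 ± 0.43. Klrk1 (ENSMUSG00000030149.15; chr6:129610323-129623864, minus strand), which lies 11547 bases beyond the end of Klrd1, encodes NKG2D, an activating receptor for ligands of stressed cells. It had 2.45, 7.11, 1.30 and 6.06 CPM in KO-labelled libraries 1 to 4, against 7.26, 7.18, 7.25 and 6.17 CPM in WT libraries 1 to 4. The WT libraries were the tightest of any of the 9 genes (coefficient of variation 7.65%), KO-labelled library 2 lay among them, and KO-labelled library 4 was just below the lowest of them. The log2 fold change of Klrk1 was -0.72 ± 0.45.

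**Figure D1:**
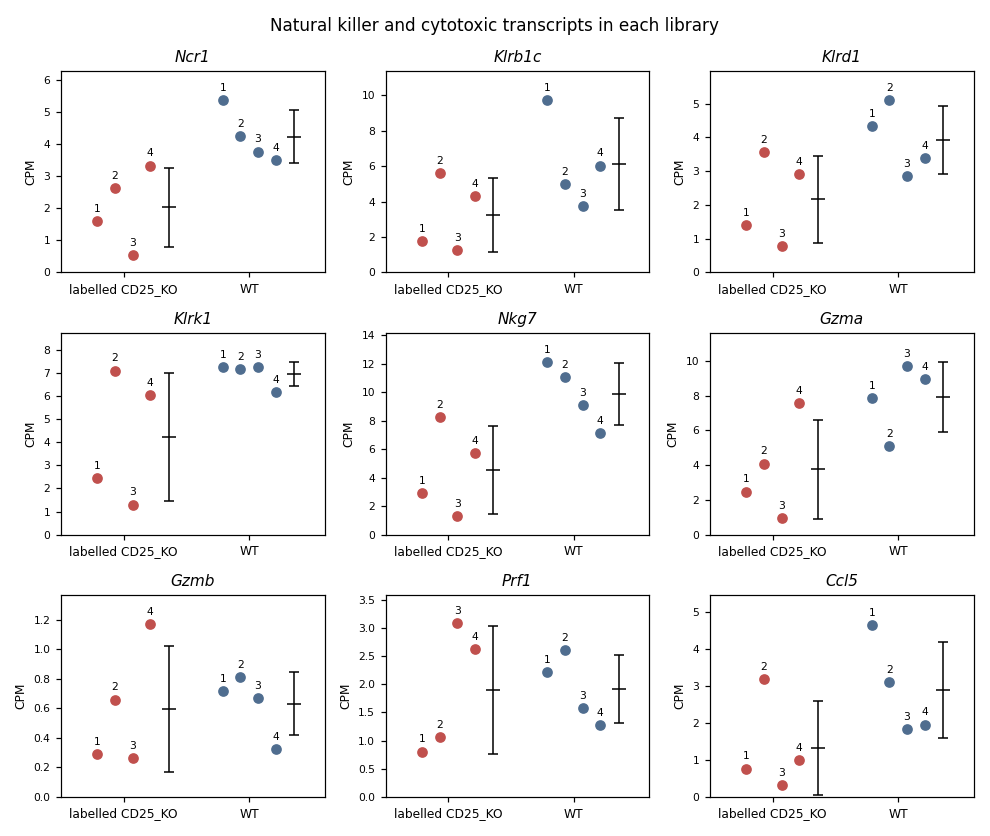
Level of each of the 9 transcripts in CPM (vertical axis, from 0) in the 4 KO-labelled libraries (red, left) and the 4 WT libraries (blue, right), with library numbers beside the points and mean ± SD as bars. KO-labelled libraries 1 and 3 are the lowest points in 8 of the 9 panels; in the Prf1 panel library 3 is the highest point, at 3.09 CPM.

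Among the granule genes, Nkg7 and Gzma were lower on average in the KO-labelled libraries, whereas Gzmb and Prf1 had nearly equal group means. Nkg7 (ENSMUSG00000004612.9; chr7:43437073-43438249, plus strand) encodes a granule membrane protein needed for efficient degranulation. It had 2.93, 8.23, 1.28 and 5.70 CPM in KO-labelled libraries 1 to 4, against 12.1, 11.04, 9.10 and 7.15 CPM in WT libraries 1 to 4. KO-labelled library 2 alone reached the WT range, and the log2 fold change was -1.12 ± 0.47.

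Gzma (ENSMUSG00000023132.8; chr13:113093825-113100981, minus strand) encodes granzyme A, a serine protease with trypsin-like specificity. It had 2.47, 4.09, 0.942 and 7.59 CPM in KO-labelled libraries 1 to 4, against 7.86, 5.11, 9.71 and 8.93 CPM in WT libraries 1 to 4. Here KO-labelled library 4, and not library 2, was inside the WT range, and WT library 2 was the lowest of its group. The log2 fold change was -1.06 ± 0.51.

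Gzmb (ENSMUSG00000015437.5; chr14:56258838-56262260, minus strand) encodes granzyme B, which cleaves after aspartate and triggers apoptosis in the target. It had 0.289, 0.660, 0.260 and 1.17 CPM in KO-labelled libraries 1 to 4, against 0.717, 0.811, 0.669 and 0.323 CPM in WT libraries 1 to 4. KO-labelled library 4 was the highest of all 8 libraries, and KO-labelled libraries 1 and 3 were the lowest, close to WT library 4. With 13 counts in KO-labelled library 3, the exact 95% Poisson interval ran from 0.139 to 0.445 CPM, which holds the value of WT library 4 and covers counting error only. The means were 0.595 ± 0.425 CPM in the KO-labelled libraries and 0.630 ± 0.213 CPM in WT libraries, a log2 fold change of -0.07 ± 0.53.

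Prf1 (ENSMUSG00000037202.6; chr10:61297833-61304680, plus strand) encodes perforin, which opens the target membrane to granzymes. It had 0.804, 1.06, 3.09 and 2.63 CPM in KO-labelled libraries 1 to 4, against 2.22, 2.61, 1.58 and 1.27 CPM in WT libraries 1 to 4. KO-labelled library 3, the lowest of the 8 libraries for every other gene of the 9, was the highest for Prf1, and KO-labelled libraries 1 and 2 were the lowest. That value rests on 154 counts, with an exact 95% Poisson interval from 2.62 to 3.61 CPM. The group means were 1.90 ± 1.13 CPM in the KO-labelled libraries and 1.92 ± 0.604 CPM in WT libraries, a log2 fold change of -0.02 ± 0.44.

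Ccl5 (ENSMUSG00000035042.2; chr11:83525778-83530518, minus strand) is the one secreted signal of the 9, a chemokine of activated T and NK cells. It had 0.763, 3.19, 0.321 and 0.991 CPM in KO-labelled libraries 1 to 4, against 4.64, 3.10, 1.83 and 1.95 CPM in WT libraries 1 to 4. KO-labelled library 2 exceeded 3 of the 4 WT libraries, and the other KO-labelled libraries lay below all of them. The log2 fold change was -1.12 ± 0.61, the widest error of the 9.

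By library, the lowest levels lay mostly in KO-labelled libraries 1 and 3. KO-labelled library 3 was the lowest of all 8 in 8 of the 9 genes, against 20.4% of all genes tested, and library 1 was the second lowest in 8 of the 9. Library 1 lay below every WT library in 9 of 9 genes (28.2% of all genes tested) and library 3 in 8 of 9 (29.6%). The same held for KO-labelled library 2 in 3 of 9 genes (15.6%) and for library 4 in 4 of 9 (20.5%). As a percentage of the WT mean, the median over the 9 genes was 35.2% in library 1, 90.7% in library 2, 18.7% in library 3 and 78.8% in library 4. All 9 log2 fold changes were below 0, as were those of 49.6% of all genes tested. Their median was -0.92, against 0.00 over all genes tested, and 4 of the 9 (Ncr1, Nkg7, Gzma and Ccl5) were below -1, as were 1.54% of all genes tested. Since the genes were picked for low values in some of these libraries, nothing is read from these counts about the 9 genes as a set.

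**Figure D2:**
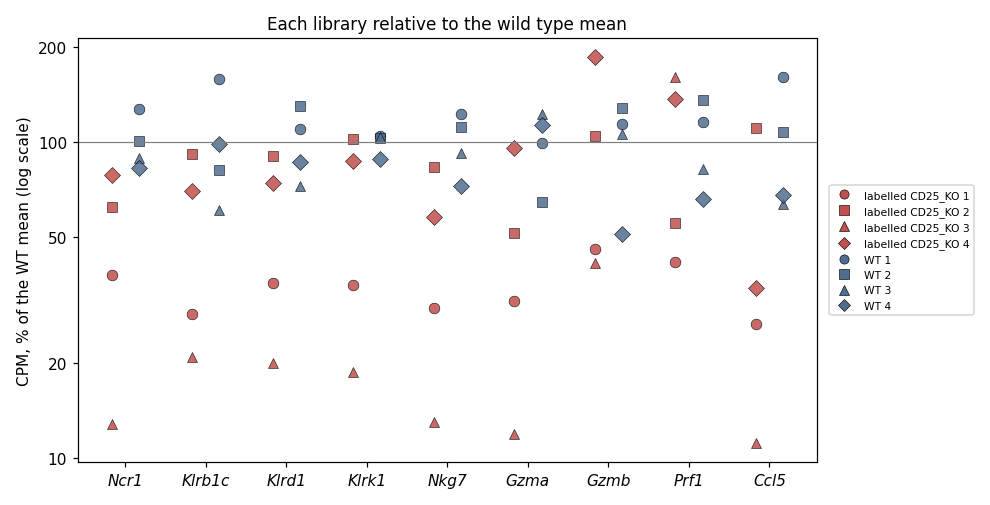
Level of each of the 9 transcripts in each library as a percentage of the WT mean of that gene (log scale), KO-labelled libraries in red and WT libraries in blue, with the symbol giving the library number. KO-labelled library 1 (red circles) stays between 26.5% and 45.8% for all 9 genes, while library 3 (red triangles) runs from 11.1% for Ccl5 to 161% for Prf1.

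The summed level of the 9 transcripts was 14.5, 36.2, 9.80 and 34.7 CPM in KO-labelled libraries 1 to 4, against 54.2, 44.2, 40.5 and 38.7 CPM in WT libraries 1 to 4. The sums did not overlap, and KO-labelled libraries 2 and 4 lay much closer to WT library 4 than to the other KO-labelled libraries. Means of the sums were 23.8 ± 13.6 CPM in the KO-labelled libraries and 44.4 ± 6.93 CPM in WT libraries (SD, n = 4 each). The mean centred log2 CPM of the 9 genes, each gene centred on its own mean over the 8 libraries, was -0.96, 0.25, -1.58 and 0.27 in KO-labelled libraries 1 to 4 and 0.84, 0.62, 0.34 and 0.22 in WT libraries 1 to 4. On this scale, which weights each gene alike, KO-labelled libraries 2 and 4 lay inside the WT range.

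**Figure D3:**
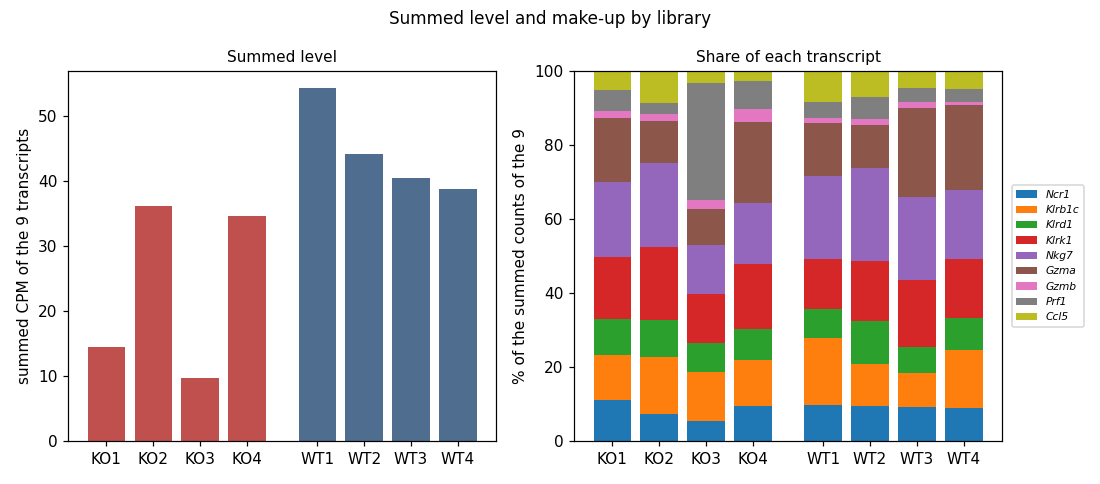
Left, summed CPM of the 9 transcripts in each library (bars from 0; KO1 to KO4 are the KO-labelled libraries, red, and WT1 to WT4 the WT libraries, blue). Right, percentage of the summed counts of the 9 that each transcript contributed. The share of Prf1 (grey) is 31.5% in KO3 and between 2.94% and 7.58% in the other 7 libraries.

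The receptors, Gzma and Ccl5 kept steadier proportions to Nkg7 than levels, and Prf1 did not. The count ratio of Ncr1 to Nkg7 ran from 0.321 to 0.585 over all 8 libraries, a range of 1.83 times, while the summed level ran from 9.80 to 54.2 CPM. Klrk1 to Nkg7 ran from 0.600 to 1.06, Klrd1 to Nkg7 from 0.314 to 0.609 and Klrb1c to Nkg7 from 0.412 to 1, the widest of the 4 receptors at 2.43 times. The range was 2.23 times for Ccl5 to Nkg7, 2.88 times for Gzma to Nkg7 and 4.56 times for Gzmb to Nkg7. Prf1 to Nkg7 was 0.275, 0.129, 2.41 and 0.462 in KO-labelled libraries 1 to 4, against 0.183, 0.236, 0.174 and 0.178 in WT libraries 1 to 4, a range of 18.6 times. Prf1 made up 5.56%, 2.94%, 31.5% and 7.58% of the counts of the 9 genes in KO-labelled libraries 1 to 4, against 4.09%, 5.90%, 3.91% and 3.29% in WT libraries 1 to 4. KO-labelled library 3 thus held the most perforin counts and the fewest counts of each receptor. The share of Gzma varied in both groups, from 9.61% to 21.9% in the KO-labelled libraries and from 11.6% to 24.0% in WT libraries.

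Other genes of the NK and cytotoxic programme were tested against the whole table. None of the 18884 genes passed an adjusted p of 0.05 between the KO-labelled and WT libraries (0%; edgeR quasi-likelihood test, smallest adjusted p = 0.391), while at an unadjusted p under 0.05 there were 1045 higher genes (5.53%) and 1343 lower genes (7.11%). DESeq2 called 6 genes, none of them one of the 9 or of the NK and cytotoxic lists. Of 70 other NK and cytotoxic genes listed, 62 could be tested, and 0 were called in either direction. Their log2 fold changes were below 0 in 47 and above 0 in 15, with a median of -0.54, and 9 were lower and 0 higher at an unadjusted p under 0.05. The median depended on single libraries: it was -0.26 without KO-labelled library 3, -0.34 without WT library 1, -0.36 without WT library 2 and -0.81 without KO-labelled library 2. With a term for libraries above 5 CPM of Y-linked genes the median was -0.87. By edgeR, 21 were then lower and 2 higher at an unadjusted p under 0.05. In that fit 2348 of all 18884 genes tested were lower and 2298 higher. Upper quartile factors gave 15 lower, where 1923 of all 18884 genes tested were lower. Without WT library 4 the whole-table test called 363 genes (1.86%), 358 of them higher in the KO-labelled libraries, among them 1 of the 61 NK and cytotoxic genes tested there, Stx11.

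The NK receptors and their adaptors had log2 fold changes below 0 in 24 of 24 tested genes, with a median of -0.76. Klri2, a lectin-like receptor of NK cells, averaged 1.47 ± 1.08 CPM in the KO-labelled libraries and 3.45 ± 0.891 CPM in WT libraries, a log2 fold change of -1.23 ± 0.50 (edgeR adjusted p = 0.391). Tyrobp, the signalling adaptor DAP12, averaged 29.1 ± 3.96 CPM in the KO-labelled libraries and 36.2 ± 5.49 CPM in WT libraries (adjusted p = 0.401). Slamf7, which B lineage cells also express, averaged 324 ± 17.2 CPM in the KO-labelled libraries and 378 ± 21.4 CPM in WT libraries (adjusted p = 0.391). Klra1, a Ly49 receptor, averaged 20.3 ± 3.47 CPM in the KO-labelled libraries and 21.3 ± 3.57 CPM in WT libraries (adjusted p = 0.886). Klri1, Klra5, Klrg1 and Tigit had too few counts to be tested.

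Of the granule and death ligand genes, 9 of 14 tested had log2 fold changes below 0, with a median of -0.22. Tnfsf10, the death ligand TRAIL, averaged 3.11 ± 1.02 CPM in the KO-labelled libraries and 6.17 ± 1.70 CPM in WT libraries, a log2 fold change of -0.99 ± 0.29 (edgeR adjusted p = 0.391). Ctsc, the cathepsin that activates granzymes, averaged 156 ± 10.6 CPM in the KO-labelled libraries and 183 ± 19.2 CPM in WT libraries (adjusted p = 0.391). Stxbp2, a docking factor for granule release, averaged 323 ± 28.6 CPM in the KO-labelled libraries and 293 ± 27.7 CPM in WT libraries (adjusted p = 0.554). These abundant genes are expressed in many blood cells.

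Cytokines, chemokines and their receptors had 8 of 10 log2 fold changes below 0, with a median of -0.95. Ccl3, a chemokine of activated lymphocytes and macrophages, had the lowest of the 10, at -1.18 ± 0.71 (edgeR adjusted p = 0.487). It averaged 0.208 ± 0.192 CPM in the KO-labelled libraries and 0.479 ± 0.197 CPM in WT libraries. Its level in KO-labelled library 3 was 0.020 CPM, near the floor. The more abundant receptor gene Ccr3 averaged 1.19 ± 1.09 CPM in the KO-labelled libraries and 0.937 ± 0.775 CPM in WT libraries. Its log2 fold change was 0.34 ± 0.67 (edgeR adjusted p = 0.847). Among 7 cytokine receptor genes 4 were below 0, with a median of -0.25. Il2rb, the beta chain shared by the interleukin-2 and interleukin-15 receptors and the partner of CD25, had 2.78, 4.93, 1.22 and 3.53 CPM in KO-labelled libraries 1 to 4, against 10.9, 6.22, 5.27 and 4.89 CPM in WT libraries 1 to 4. KO-labelled library 2 overlapped the lowest WT library, and the log2 fold change was -1.13 ± 0.41 (edgeR adjusted p = 0.391). Of the transcription factors 2 of 7 were below 0, with a median of 0.29. Tbx21, which encodes the NK regulator T-bet, had from 0 to 22 counts and was not tested, and Eomes averaged 0.289 ± 0.245 CPM in the KO-labelled libraries and 0.263 ± 0.169 CPM in WT libraries.

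**Figure D4:**
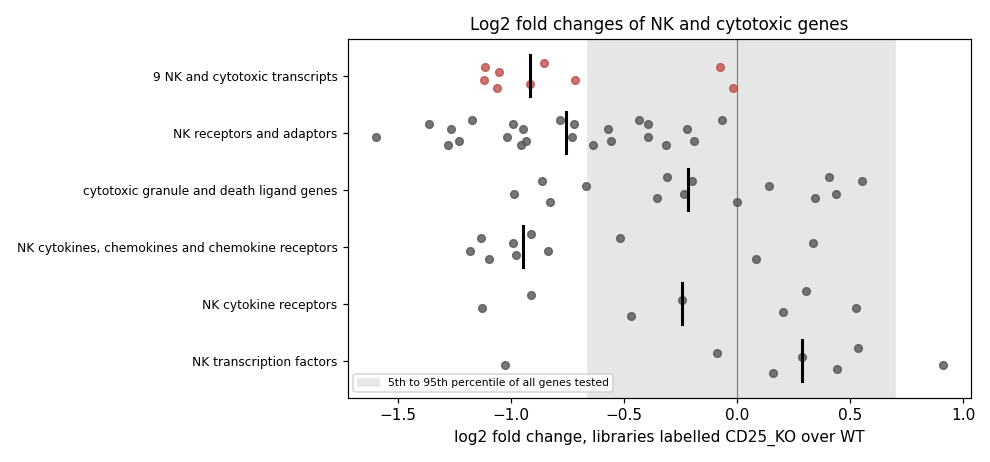
Log2 fold changes (KO-labelled over WT libraries) of the 9 transcripts (red) and of the other tested NK and cytotoxic genes by list (grey points), with the median of each list as a black bar and the range from the 5th to the 95th percentile of all genes tested (-0.66 to 0.70) shaded. All 24 receptor and adaptor genes lie left of 0, and 5 of the 7 transcription factors lie right of it.

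Klrb1c, Klrd1 and Klrk1 lie in the NK gene complex of chromosome 6, a cluster of lectin-like receptor genes. The window around them ran from 1 Mb before the first to 1 Mb after the last (chr6:127778485-130623864). Without these 3 genes it held 20 annotated Klr genes, of which 15 were tested. Most of them, such as Klri2, Klra1 and Klra9, are also in the list of receptors and adaptors above, so they are not a separate observation. All 15 had log2 fold changes below 0, with a median of -0.90 and a range from -1.28 to -0.03. The 41 other tested genes of the window had 28 below 0 and a median of -0.15. Cd69, an activation marker that lies among them and is expressed by B lineage cells, averaged 207 ± 82.5 CPM in the KO-labelled libraries and 147 ± 15.9 CPM in WT libraries (edgeR adjusted p = 0.397). The Klr genes have similar copies, and alignments to several places were each counted, so the levels of single Klr genes are uncertain.

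By the root mean square difference of centred log2 CPM over the 8 libraries, the genes most like the mean of the 9 among 10590 genes ranked were Kif18a (0.186), Arhgap19 (0.200), Ccnb1 (0.212), Depdc1a (0.220), Parpbp (0.222), Klhl32 (0.223), Art4 (0.232) and Cdc25c (0.233), where the median gene stood at 0.841. The NK adaptor gene Hcst ranked 9th, Klre1 14th, Fcer1g 20th, Il2rb 40th, Klra7 113th and Klri2 219th. Among the 9 themselves the difference from their own mean was smallest for Klrd1 (0.181) and Klrk1 (0.198) and largest for Ccl5 (0.546) and Prf1 (0.976). Several of the 8 genes act in mitosis, so a list of 12 cell division genes was set beside the 9, chosen after this ranking was seen. Its mean centred log2 CPM was -0.48, 0.15, -1.04 and 0.14 in KO-labelled libraries 1 to 4 and 0.31, 0.28, 0.22 and 0.41 in WT libraries 1 to 4.

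Markers of several other cell types, though not of all, were low in the same KO-labelled libraries. The mean centred log2 CPM of 13 neutrophil markers was -0.64, 0.89, -2.44 and 0.46 in KO-labelled libraries 1 to 4 and 0.17, 0.98, 0.22 and 0.36 in WT libraries 1 to 4. For 11 of 12 monocyte and macrophage markers it was -0.97, 0.50, -1.63 and 0.62 in KO-labelled libraries 1 to 4 and -0.13, 1.03, 0.24 and 0.35 in WT libraries 1 to 4. For 11 of 12 erythroid markers it was -1.39, 0.11, -1.39 and 0.30 in KO-labelled libraries 1 to 4 and 0.34, 0.19, 0.41 and 1.42 in WT libraries 1 to 4. Libraries 1 and 3 of the KO-labelled group were the lowest 2 of the 8 in all 3 of these lists, as they were for the 9 transcripts. Summed levels of the neutrophil list ran from 123 to 501 CPM in the KO-labelled libraries and from 266 to 570 CPM in WT libraries. Those of the monocyte list ran from 41.6 to 186 CPM in the KO-labelled libraries and from 140 to 257 CPM in WT libraries. The erythroid sums did not overlap, running from 319 to 2339 CPM in the KO-labelled libraries and from 2972 to 8734 CPM in WT libraries.

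For 4 of 8 mast cell and basophil markers the mean centred log2 CPM was -1.30, 0.44, -2.66 and -0.02 in KO-labelled libraries 1 to 4 and 0.96, 1.70, 0.14 and 0.73 in WT libraries 1 to 4. For 9 of 10 plasmacytoid dendritic cell markers it was -0.36, 0.73, -1.24 and 0.11 in KO-labelled libraries 1 to 4 and 0.44, 0.66, -0.02 and -0.31 in WT libraries 1 to 4. Markers of type 2 innate lymphoid cells, relatives of NK cells, ran otherwise: for the 4 of 8 tested it was 0.56, -0.52, -1.29 and 0.50 in KO-labelled libraries 1 to 4 and 0.75, -0.05, 0.07 and -0.02 in WT libraries 1 to 4. KO-labelled library 1 was thus the second highest of the 8 for that list, while library 3 was the lowest.

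T cell markers, which would accompany cytotoxic T cells, were less uniform. Of 15 listed 11 could be tested, and their mean centred log2 CPM was 0.11, 0.22, -0.83 and -0.14 in KO-labelled libraries 1 to 4 and 0.73, 0.31, -0.42 and 0.00 in WT libraries 1 to 4. Their summed level ran from 24.4 to 39.3 CPM in the KO-labelled libraries and from 36.6 to 47.8 CPM in WT libraries, most of it Lck. The defining markers Cd3e and Cd8a had at most 7 and 11 counts in any library, whereas the T cell receptor constant gene Trbc1 was in the CPM range of the 9. Trbc1 had 1.15, 1.89, 0.741 and 2.34 CPM in KO-labelled libraries 1 to 4, against 4.12, 3.47, 1.81 and 2.29 CPM in WT libraries 1 to 4, a log2 fold change of -0.93 ± 0.39 (edgeR adjusted p = 0.391). Its lowest values lay in KO-labelled libraries 3 and 1, and those of Trbc2 in KO-labelled library 3 and WT library 3, with log2 fold changes of -0.83 ± 0.53 for Trbc2 (adjusted p = 0.508) and -0.63 ± 0.28 for Cd247, a signalling chain shared by T and NK cells (adjusted p = 0.391). The mean over 14 B lineage markers ran from -0.18 to 0.09 in the KO-labelled libraries and from -0.11 to 0.26 in WT libraries, with 9 genes below and 5 above 0 in log2 fold change. Among them Igll1, a surrogate light chain gene, had a log2 fold change of -0.91 ± 0.40 (edgeR adjusted p = 0.393) and the B lineage factor gene Ebf1 one of 0.40 ± 0.13 (adjusted p = 0.391). The part of other cell types and of cell division in the levels of the 9 transcripts was not tested.

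**Figure D5:**
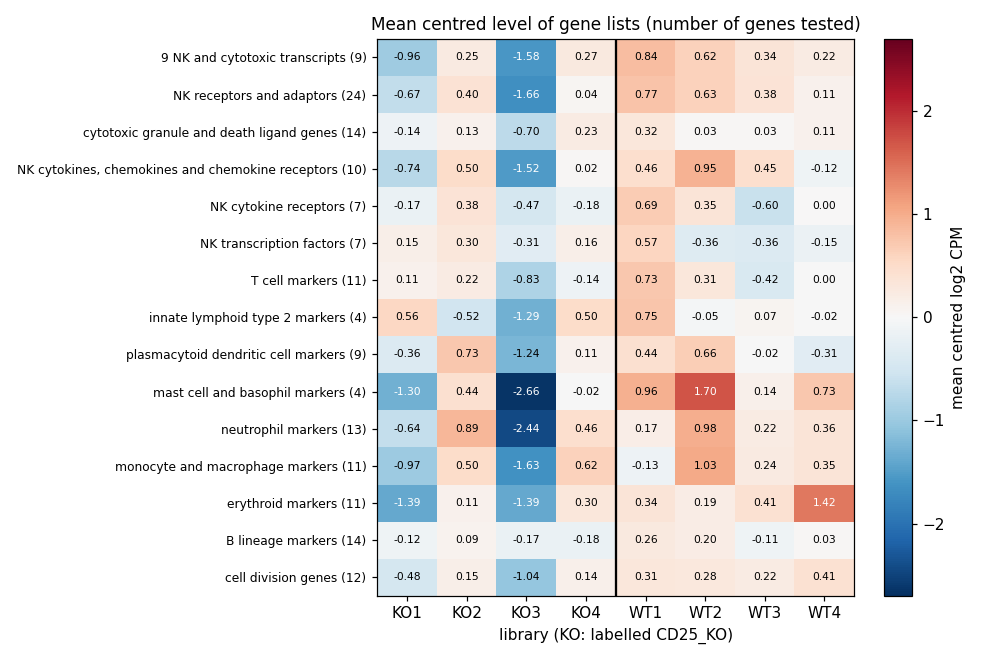
Mean centred log2 CPM (colour and printed value) of the 9 transcripts and of lists of other genes (rows, with the number of genes tested) in each library (columns; KO1 to KO4 are the KO-labelled libraries, left, and WT1 to WT4 the WT libraries, right). KO3 is the lowest column in 12 of the 15 rows, among them the 9 transcripts at -1.58, and the row of B lineage markers spans -0.18 to 0.26.

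KO-labelled libraries 1 and 3, the low ones, were also those with at most 5 CPM of Y-linked genes, as were WT libraries 1, 3 and 4. The median over the 9 transcripts was 115%, 89.1% and 83.0% of the WT mean in WT libraries 1, 3 and 4. It was 90.7% and 78.8% in KO-labelled libraries 2 and 4. In the 5 libraries with at most 5 CPM of Y-linked genes alone the log2 fold changes of the 9 genes ran from -2.35 for Gzma to 0.26 for Prf1. The other NK and cytotoxic genes had a median of -1.16 there, with 0 called by edgeR. At an unadjusted p under 0.05, 22 of 61 were lower and 4 higher, where 9.15% of all 19644 genes tested in this set were lower and 6.65% higher. This set keeps only the KO-labelled libraries in which the 9 genes were low, so its values are no independent support. Among the 3 libraries above 5 CPM of Y-linked genes the summed level was 36.2 and 34.7 CPM in KO-labelled libraries 2 and 4, against 44.2 CPM in WT library 2. With 1 WT library in that set, no spread could be given for it.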

How the data were processed

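The deposited table holds raw fragment counts of 55487 genes in 8 libraries, made by the authors with featureCounts 2.0.1 (paired mode, exons of GENCODE M25), per the file headers. Multi-mapping fragments were counted at each place and no strand setting is recorded, so overlapping or antisense genes and similar copies cannot be told apart; of the 9 genes, Klrb1c overlaps another annotated gene, which had at most 1 count. The submitters' processing notes name mm10, STAR 2.7.7a and GATK 4.1.9.0, without saying what GATK did. The table also gives exon length per gene (an annotation, deposited by the authors), used here for TPM. The table had 0 columns of other samples.

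Names and positions came from GENCODE M21 (GRCm38, identical to mm10; 55141 genes named, 346 not), and promoter sequences from RefSeq. Genes were filtered with filterByExpr (18884 kept), TMM-scaled and compared by the robust quasi-likelihood test of edgeR 4.0.16 (glmQLFit, two-sided, no term but genotype) in R 4.3.3, with Benjamini-Hochberg adjustment over all genes tested. DESeq2 1.42.0 and limma 3.58.1 were alternatives. Centred log2 CPM used a prior count of 2, and the common biological coefficient of variation was 0.308. Likeness was ranked only for genes whose CPM, not on the log2 scale, averaged 1 or more over the 8 libraries. No library was a copy of another of its group: over 12 pairs, the chi-square of their counts was at least 25.2 times its degrees of freedom.

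The 9 genes, the lists, the motifs and the alternatives were chosen with earlier results of these data known. Named from each list are genes among its 3 most abundant, or its 2 with the smallest unadjusted p. Other genes were named after their values were seen: Eomes, Tbx21, Cd3e, Cd8a, Kit, Vpreb1, Dntt, Rag1, Il7r, Stx11, Hcst, Klre1, Fcer1g, Klra7 and genes with too few counts.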

Additional observations from a re-analysis of the deposited data

Results flagged for a closer look

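In 42 groups of 4 libraries checked for a sample far from the others, 2 stood out, about as many as the 1 in 20 that chance gives. Klrk1 was 6.17 CPM in WT library 4, where the other 3 WT libraries lay between 7.18 and 7.26 CPM; the gap was 0.924 of the whole range, past Dixon's 95% critical value for 4 samples. That value is the one nearest to KO-labelled library 4, at 6.06 CPM. The share of Prf1 in the counts of the 9 genes was 31.5% in KO-labelled library 3, where the other KO-labelled libraries had 2.94% to 7.58%, a gap of 0.837 of the range.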

How the results depend on the processing

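No gene was called between KO-labelled and WT libraries under DESeq2 size factors, upper quartile factors, no count filter, a stricter filter or limma-voom. The same held with a term for libraries above 5 CPM of Y-linked genes. It also held in the 5 libraries with at most 5 CPM of Y-linked genes, an alternative chosen after seeing the data. DESeq2 called 6 genes (Ptprv, Ccdc82, Dusp6, Aoc2, Egln3 and Serpinb9b). Leaving out 1 library gave 0 to 363 genes called, and 0 to 1 among the other NK and cytotoxic genes, the highest of both without WT library 4; the cause was not tested. No clear pairing by replicate number was seen. Same-numbered libraries correlated from -0.03 to 0.64, and 1 of 4 KO-labelled libraries correlated best with its own number. With 4 libraries per group this check cannot exclude pairing. The fit with a replicate block called 0 genes. Upper quartile factors moved the median of all genes to -0.09. The difference in mean centred log2 CPM of the 9 genes was -1.01, from -1.27 to -0.65 with 1 library left out, smallest without KO-labelled library 3, and -1.74 in the 5 libraries low in Y-linked genes. Of 152 recomputed log2 fold changes of the 9 genes, 8 moved by more than 1 SD, all in those 5 libraries. The signs of Gzmb (-1.01 to 0.17) and Prf1 (-0.35 to 0.26) depended on the setting, and the other 7 genes stayed below 0 in each alternative run. A minimum of 1 CPM dropped Gzmb, whose counts of 13 to 65 limit what its levels can show.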
